A study of Gallus gallus with 6 samples.

Results

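The collagens, the laminins, the nidogens, perlecan (*HSPG2*) and agrin (*AGRN*) were followed in RNA-seq libraries of wounded chick lens explants. The genes were taken by symbol from the deposited count table, in which 35 of 17262 genes carry the symbol of a collagen chain, a laminin chain, NID1, NID2, HSPG2 or AGRN, and 25 of these had 10 or more raw counts in at least 3 libraries. Those 25, all of which were tested, comprised 13 chains of basement membranes and 12 other collagens. The libraries were made from poly-A RNA of lens explants of chick embryos at embryonic day 14 that had all undergone ex vivo cataract surgery, 3 libraries at 1 h post wounding and 3 at time 0, each from a pool of 6 explants. Because the surgery removes the central anterior epithelium and the fiber cell mass, an explant consists mainly of capsule and equatorial epithelium, with some resident immune cells. The 1 h explants had also been flattened on a dish and cultured for 1 h in medium with serum, whereas the time 0 explants were collected directly after surgery, so that time after wounding and culture cannot be told apart. Neither strain nor sex was stated in the labels.

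The capsule that surrounds the lens is a thick basement membrane secreted by the lens cells themselves. Type IV collagen chains wind into trimers that join into a network, and laminins, each a trimer of an alpha, a beta and a gamma chain, polymerise into another network that binds integrins and dystroglycan on the cell surface. Nidogen and perlecan link the networks. Fibrillar collagens such as types I, II, III and V form the fibers of stroma, cartilage and vitreous, and the collagens associated with fibrils, such as types IX and XII, decorate them.

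The libraries held between 13733581 and 17673955 counts. Levels are given as CPM, the count relative to the library total after TMM scaling, and levels of different genes are compared as CPM per kilobase of the listed gene length. The limit set by 3 counts was 0.175 to 0.221 CPM across libraries, for counting error alone. A lens epithelium list held 15 symbols, of which *FOXE3* and *MEIS2* had no row. The other 13 were all counted, *EPCAM* and *AQP1* with at most 25 and 22 counts in a library. At an adjusted p under 0.05 in edgeR's test, 3 of the 13 were higher at 1 h (*PAX6*, *PROX1* and *SIX3*). Another 4 were lower (*CRYAB*, *GJA1*, *SOX1* and *KRT18*), and of all genes tested 19.8% were higher and 12.0% lower. Of 13 tested lens fiber markers, 11 fell at 1 h. Their summed level was 5201 to 5460 CPM at 1 h and 7477 to 9901 CPM at time 0. In a ciliary and retinal pigment epithelium list, 6 of 10 rows had 3 or fewer counts in each library, among them *TYR* and *TYRP1*. That list still summed to 20.3 to 21.9 CPM at 1 h and 20.2 to 24.4 CPM at time 0. Most of the sum was *RLBP1*, with 13.7 to 17.6 CPM at 1 h and 11.7 to 16.4 CPM at time 0. *SLC45A2*, *RPE65* and *PMEL* were also counted. The endothelial *CDH5* had at most 4 counts in a library. The summed endothelial list, mostly *KDR*, was still 19.5 to 27.6 CPM at 1 h and 5.97 to 9.44 CPM at time 0. Resident immune cell genes summed to 8.88 to 12.8 CPM at 1 h and 4.72 to 7.24 CPM at time 0. That sum includes a row under *C1QC*, with at most 4 counts in a library, that is described as a collagen chain. *CD83*, the 1 gene of the immune list called, had 2.22 to 2.92 CPM at 1 h and at most 0.074 CPM at time 0. In 1 h replicate 3, however, 12 of 13 rows of a neural retina list had their highest level. That list had 422 counts there, against 8 to 20 in each other library. In 1 h replicate 1, 5 of 6 blood cell genes and 7 of 13 resident immune cell rows were highest. Time 0 replicate 2 was highest in 11 of 14 lens fiber markers. In bulk RNA, fewer cells of a type and less RNA per cell cannot be told apart.

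Among the 25 genes, the quasi-likelihood test of edgeR, adjusted by Benjamini-Hochberg over all 12391 genes tested, called 4 higher at 1 h (*LAMA1*, *LAMA3*, *LAMA5* and *COL12A1*) and 1 lower (*COL8A2*) at an adjusted p under 0.05. The 5 genes called are 20.0% of the 25, and of all genes tested 31.8% were called, 19.8% higher and 12.0% lower. At an unadjusted p under 0.05, 5 were higher and 3 lower, against 24.2% and 18.6% of all genes. The median log2 fold change was -0.0018 for the 25 genes and -0.0058 for all genes, and 12 of the 25 had a log2 fold change above 0. All 3 libraries of 1 h lay above all 3 of time 0 in 5 of the genes, and below them in 4, against 25.4% and 21.4% of all genes (46.7% in either direction). Without time 0 replicate 2 the counts were 4 higher, the same genes, and 1 lower, which was *COL9A1* and not *COL8A2*. Without time 0 replicate 1 they were 2 and 1, the lower gene being *LAMA4*. Without 1 h replicate 1 or 3 they were 3 and 0 each. They were 3 and 1 without 1 h replicate 2, and 4 and 3 without time 0 replicate 3. In that last fit *COL4A1* and *COL4A2* were called higher, while *LAMA1*, *LAMA3* and *COL8A2* were not called. Each gene was also fitted under 16 alternatives, which changed the scaling, the filter or the tool, added a block or a gene length correction, or left out a library.

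**Figure D1:**
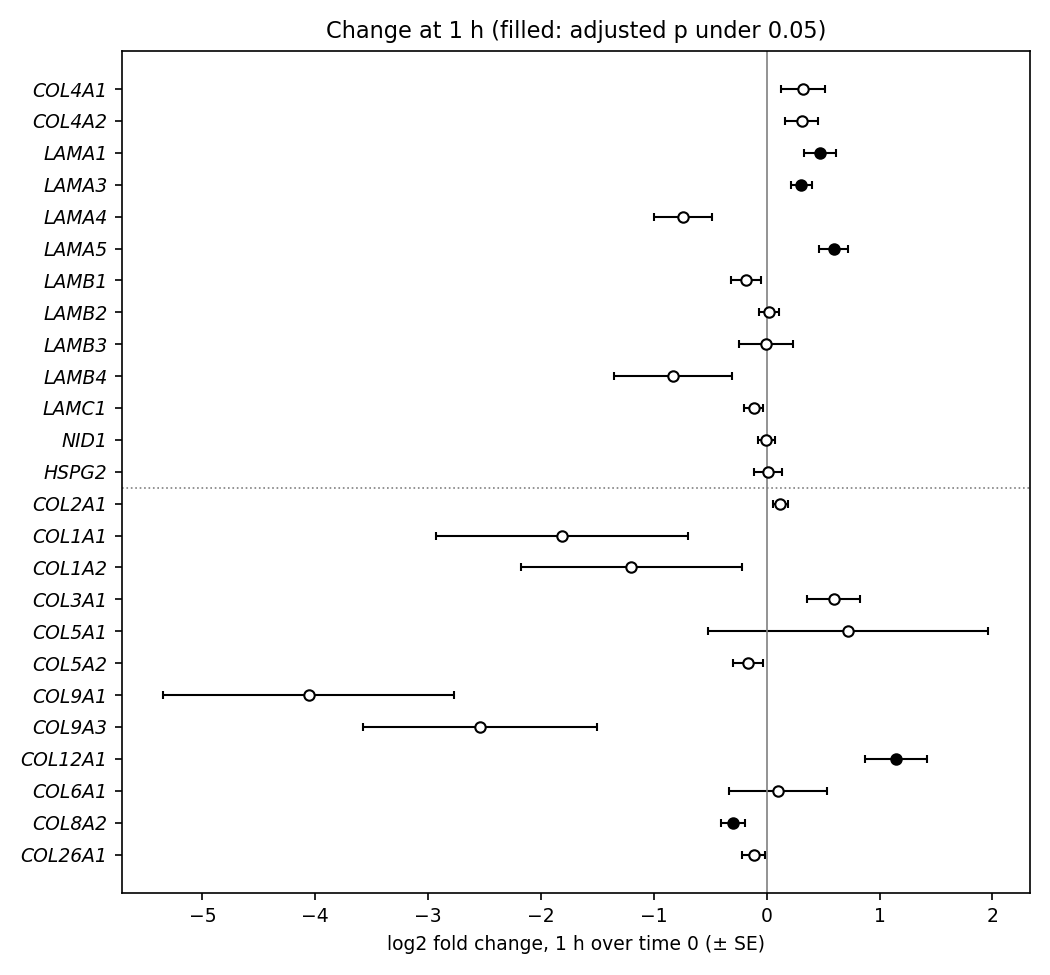
Log2 fold change of 1 h over time 0 (horizontal axis, ± standard error) for the 25 genes, basement membrane chains above the dotted line and other collagens below it. Filled points have an adjusted p under 0.05. The filled points are *LAMA1*, *LAMA3*, *LAMA5* and *COL12A1* to the right of 0 and *COL8A2* to the left, and *COL9A1* at -4.06 has a standard error of 1.29.

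The most abundant of the genes were the linkers of the basement membrane, and their levels at 1 h and at time 0 overlapped. *HSPG2*, which encodes the core protein of perlecan (ENSGALG00000035717, chromosome 21 from 6542875 to 6568734 in the authors' table), had 2053, 2237 and 1955 CPM in 1 h replicates 1, 2 and 3, against 1931, 2522 and 1734 CPM in the time 0 replicates. *NID1*, which encodes nidogen 1 (ENSGALG00000042079, chromosome 3 from 37941890 to 37973181), had 1299, 1451 and 1248 CPM at 1 h, against 1367, 1333 and 1303 CPM at time 0. The highest *HSPG2* library and the lowest were both time 0 libraries, and the time 0 values of *NID1* lay inside the range of its 1 h values. The log2 fold changes, each with its standard error (SE), were 0.01 for *HSPG2* (SE 0.13, adjusted p = 0.948) and -0.0018 for *NID1* (SE 0.08, adjusted p = 0.988). A correction for gene length removes differences between libraries in the trend of level on length. With it *HSPG2*, the longest of the genes at 11937 bases, was called lower, with a log2 fold change of -0.28 and an adjusted p of 0.0390. The alternatives spanned adjusted p-values of 0.0355 to 0.993. *HSPG2* and *NID1* together took 61.0% ± 0.77 of the summed CPM of the 25 genes at 1 h and 62.7% ± 3.28 at time 0 (SD, n = 3 libraries each). Per kilobase *NID1* was the higher of the 2, with 350.7 to 407.7 CPM per kilobase at 1 h and 366.1 to 384.3 at time 0, and it ranked 161 among the 12391 genes tested. *AGRN*, the agrin gene, whose product is another heparan sulfate proteoglycan of basement membranes, was not tested, with 0, 0 and 62 counts at 1 h and 8, 18 and 0 counts at time 0.

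**Figure D2:**
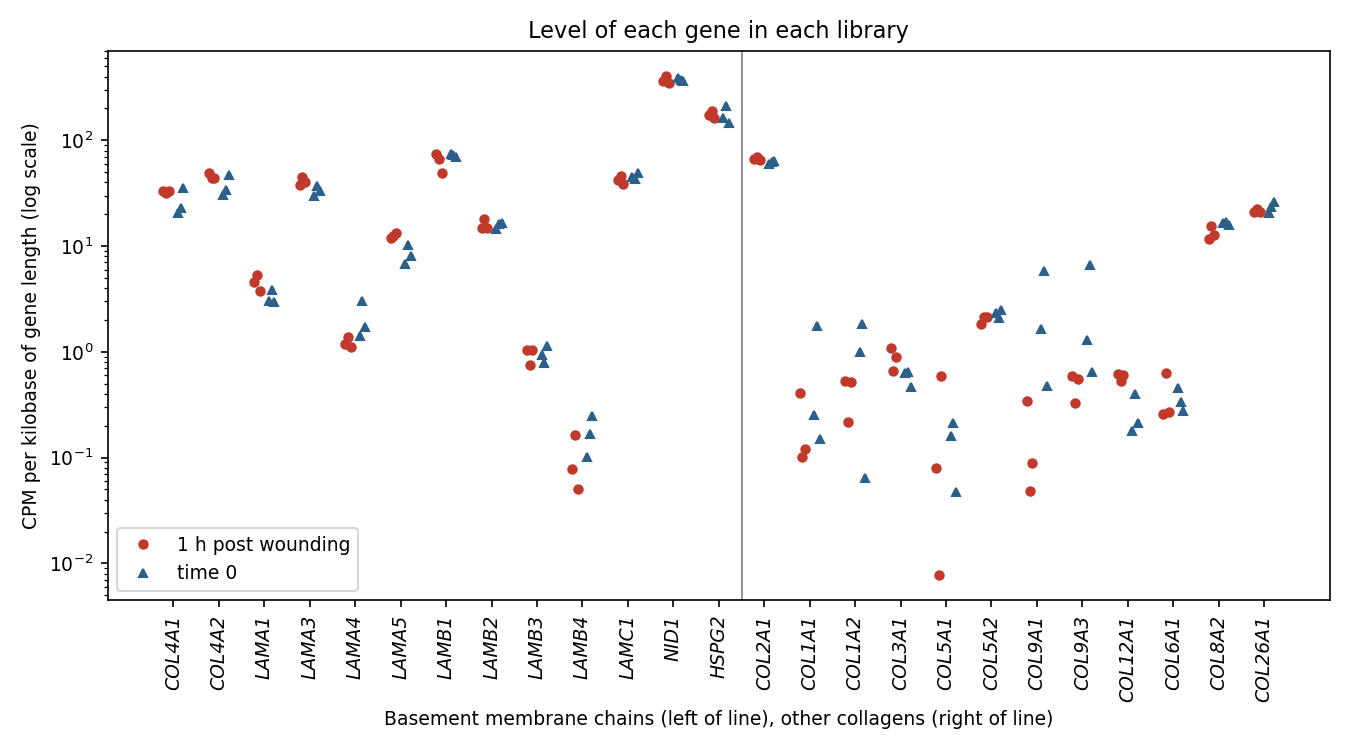
CPM per kilobase of gene length (vertical axis, log scale) of each of the 25 genes in each library, 1 h as circles and time 0 as triangles. *NID1* and *HSPG2* lie above 100 CPM per kilobase in every library, and the points of *COL1A1*, *COL1A2*, *COL5A1*, *COL9A1* and *COL9A3* spread widest.

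The type IV collagen chains of the capsule network were higher in every 1 h library than in time 0 replicates 1 and 2. Time 0 replicate 3 was above every 1 h library for *COL4A1*, and above 1 h replicates 2 and 3 for *COL4A2*. *COL4A1* (ENSGALG00000036798, chromosome 1 from 140138678 to 140249096, minus strand) had 215, 205 and 217 CPM at 1 h, against 132, 149 and 228 CPM at time 0. *COL4A2* (ENSGALG00000016843, chromosome 1 from 140248816 to 140390143, plus strand) had 295, 261 and 265 CPM at 1 h, against 181, 202 and 279 CPM at time 0. Both chains had their highest time 0 value in replicate 3, which overlapped the 1 h libraries. The log2 fold changes of 0.32 for *COL4A1* (SE 0.20, adjusted p = 0.261) and 0.31 for *COL4A2* (SE 0.15, adjusted p = 0.148) did not pass the threshold. Without time 0 replicate 3 both did, with log2 fold changes of 0.59 (adjusted p = 0.000721) and 0.51 (adjusted p = 0.00266), and the alternatives gave adjusted p-values of 0.000721 to 0.610 for *COL4A1* and 0.00266 to 0.467 for *COL4A2*.

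The 2 genes lie head to head on opposite strands, and their listed intervals share 281 bases at their starts. Their counts kept nearly the same proportion in every library while their levels moved between libraries. The ratio of *COL4A2* to *COL4A1* in CPM per kilobase was 1.49, 1.38 and 1.33 in the 1 h replicates, against 1.49, 1.47 and 1.33 in the time 0 replicates, although *COL4A1* itself differed 1.73-fold between the lowest and the highest time 0 library. The counting was not stated to use strand, so reads within the shared bases cannot be assigned with certainty. Other type IV chains, *NID2* and *COL18A1* had no row under their symbols in the deposited table, in which 5219 of 17262 genes carry no symbol.

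Among the laminins, 3 of 4 alpha chains (*LAMA1*, *LAMA3* and *LAMA5*) rose, while 0 of 5 beta and gamma chains passed edgeR's test, also at an unadjusted p under 0.05, and 0 passed with DESeq2. The 3 of 9 laminin chains called are 33.3%, close to the 31.8% of all genes called (19.8% higher). The difference between alpha and other chains was not itself tested. The 3 chains that rose are also longer, with listed lengths of 9276 (*LAMA1*), 10509 (*LAMA3*) and 11308 bases (*LAMA5*). The beta and gamma chains have 3643 to 6944 bases, and *LAMA4* has 5677. How far gene length accounts for the difference between chains was not tested. *LAMA5*, whose chain is widespread in mature basement membranes (ENSGALG00000005321, chromosome 20 from 7832322 to 7910579), had 135, 142 and 149 CPM at 1 h, against 76.1, 115 and 91.4 CPM at time 0. The libraries of the time points did not overlap. *LAMA5* rose 1.51-fold, with a log2 fold change of 0.59 (SE 0.13, adjusted p = 0.00610), and its adjusted p stayed between 4.30e-05 and 0.0272 over 16 alternatives. The size of the change was more variable than the call, from 0.32 with the gene length correction to 0.76 without time 0 replicate 2.

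*LAMA3*, known in mammals for the laminin of epithelial attachment sites (ENSGALG00000015056, chromosome 2 from 103119354 to 103231680), was the most abundant alpha chain. It had 396, 475 and 423 CPM at 1 h, against 314, 386 and 345 CPM at time 0. The lowest 1 h library was just above the highest time 0 library, and the log2 fold change was 0.31 (SE 0.09, adjusted p = 0.0248). *LAMA1*, the alpha chain of early embryonic basement membranes (ENSGALG00000014615, chromosome 2 from 99519352 to 99618009), had 42.4, 49.9 and 35.1 CPM at 1 h, against 27.9, 36.0 and 27.5 CPM at time 0. Its lowest 1 h library fell below its highest time 0 library, and the log2 fold change was 0.47 (SE 0.14, adjusted p = 0.0274). Neither call was stable. Both were lost when libraries were scaled by their totals (adjusted p = 0.0593 and 0.0541), with upper-quartile scaling (0.150 and 0.0741) and with the gene length correction, which left 0.04 for *LAMA3* and 0.23 for *LAMA1* on the log2 scale. That correction also lowered the beta and gamma chains, to -0.33 for *LAMB1*, -0.23 for *LAMC1*, -0.17 for *LAMB2*, -0.06 for *LAMB3* and -0.97 for *LAMB4*. *LAMA3* was also not called without 1 h replicate 2 or 3 or time 0 replicate 1 or 3 (adjusted p = 0.120, 0.0613, 0.100 and 0.0763), nor *LAMA1* without 1 h replicate 1 or 2 or time 0 replicate 1 or 3 (adjusted p = 0.0602, 0.0906, 0.106 and 0.0989). Across alternatives the adjusted p-values spanned 0.0121 to 0.790 for *LAMA3* and 0.00307 to 0.180 for *LAMA1*.

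*LAMA4*, whose chain is typical of vessel and mesenchymal basement membranes, did not rise. It had 6.72, 7.79 and 6.37 CPM at 1 h, against 8.04, 17.1 and 9.70 CPM at time 0, with no overlap. Its log2 fold change of -0.74 (SE 0.26) was just short of the threshold with an adjusted p of 0.0528, and 10 of 16 alternatives called it lower, with adjusted p-values from 0.00737 to 0.175 over all of them. Without time 0 replicate 1 it was -0.95 (adjusted p = 0.0147), and without time 0 replicate 2, the highest, it was -0.35 (adjusted p = 0.175).

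Set against each other per kilobase, *LAMA3* made up 69.0% ± 1.02 of the 4 alpha chains at 1 h and 71.0% ± 2.38 at time 0 (SD, n = 3 libraries each). The share of *LAMA5* was 21.2% ± 1.59 at 1 h and 17.7% ± 1.22 at time 0, that of *LAMA1* was 7.69% ± 1.04 at 1 h and 7.03% ± 0.45 at time 0, and that of *LAMA4* was 2.06% ± 0.12 at 1 h and 4.27% ± 1.16 at time 0. The alpha chains summed to 55.4, 64.5 and 58.3 CPM per kilobase at 1 h, against 41.0, 53.7 and 45.6 at time 0. In every library this sum was below that of the beta chains, which was 90.3, 85.9 and 64.9 CPM per kilobase at 1 h, against 89.3, 89.3 and 87.6 at time 0.

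**Figure D3:**
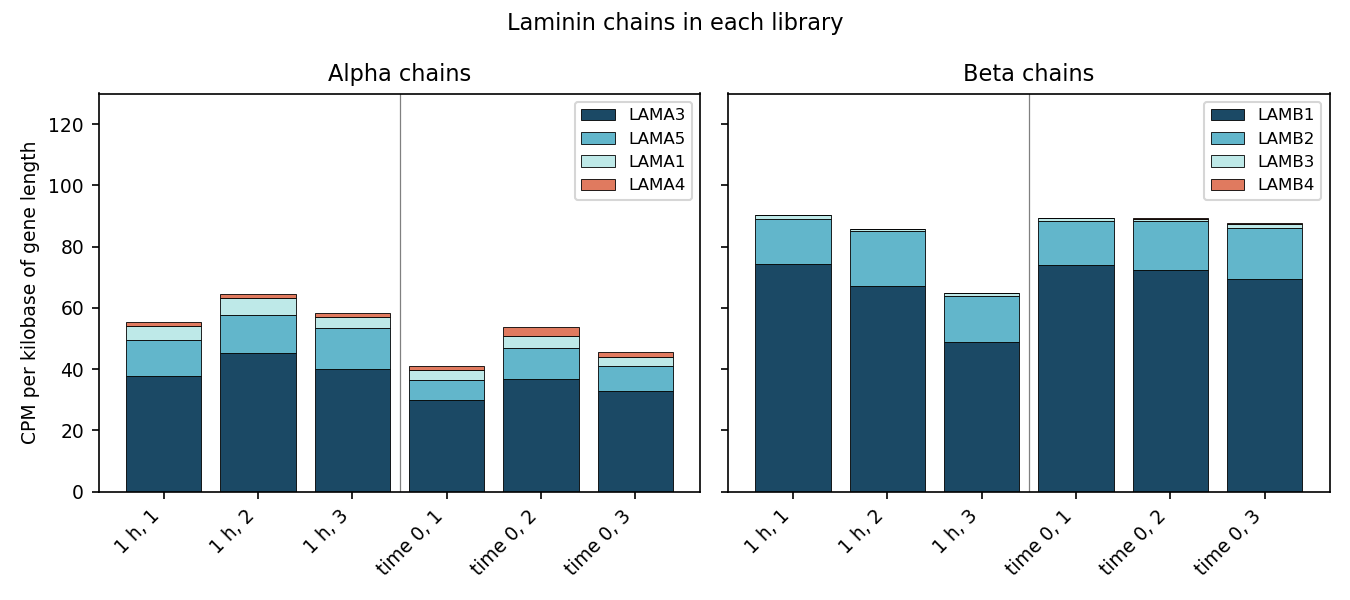
Laminin chains in each library, in CPM per kilobase of gene length from 0, stacked by chain, with the 1 h libraries left of the line. Every alpha chain sum of the 1 h libraries (55.4 to 64.5) is above every time 0 sum (41.0 to 53.7), and the shortest beta chain bar is that of 1 h replicate 3.

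The beta and gamma chains had log2 fold changes from -0.83 to 0.02. *LAMB1*, the main beta chain (ENSGALG00000007905, chromosome 1 from 15009296 to 15165846), had 437, 395 and 288 CPM at 1 h, against 435, 426 and 409 CPM at time 0. The low value was that of 1 h replicate 3, and the log2 fold change was -0.18 (SE 0.13, adjusted p = 0.323). *LAMC1*, which encodes the gamma chain shared by most laminins (ENSGALG00000004620, chromosome 8 from 7848917 to 7898075), had 204, 227 and 189 CPM at 1 h, against 219, 212 and 240 CPM at time 0. The time points overlapped, with a log2 fold change of -0.11 (SE 0.08, adjusted p = 0.326). *LAMB2* (ENSGALG00000006802, chromosome 12 from 11948006 to 11968917), a beta chain that can replace that of *LAMB1*, had 104, 125 and 104 CPM at 1 h, against 99.8, 111 and 116 CPM at time 0. It too overlapped, with a log2 fold change of 0.02 (SE 0.09, adjusted p = 0.893). *LAMB3* and *LAMB4* stayed at or below 4.13 and 1.44 CPM. Single alternatives called *LAMC1* lower (upper-quartile scaling, -0.25, adjusted p = 0.0322) and *LAMB1* lower (the replicate number as a block with the gene length correction, -0.35, adjusted p = 0.0297).

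The counts of *LAMB1*, *LAMB2* and *LAMB4* are uncertain, because their listed intervals overlap those of other rows. The interval of *LAMB1* contains that of *LAMB4* on the same strand, over 51937 bases. It also covers *ERGIC2* on the opposite strand and part of *LRRK2* on the same strand. The interval of *LAMB2* contains 3 rows without a symbol on the same strand. These had 5467, 9053 and 3990 counts over all 6 libraries, against 10153 for *LAMB2* itself. *LAMB4* had 72 counts over all 6 libraries, *ERGIC2* 10488 and *LRRK2* 1232, against 36526 for *LAMB1*.

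Of the other collagens with a symbol, the type II chain was by far the most abundant. *COL2A1*, the fibrillar collagen of cartilage and vitreous (ENSGALG00000030712, chromosome 33 from 7292614 to 7310596), had 286, 296 and 279.6 CPM at 1 h, against 255, 267 and 270.1 CPM at time 0. All 1 h libraries were above all time 0 libraries, but a change of 0.12 on the log2 scale (SE 0.07) did not pass the threshold, with an adjusted p of 0.189. Per kilobase it stood at 65.6 to 69.5 at 1 h and 59.8 to 63.4 at time 0, higher than either type IV chain in every library. The next were *COL26A1*, with 25.6 to 27.5 CPM at 1 h and 25.1 to 32.0 CPM at time 0 (log2 fold change -0.12, adjusted p = 0.426), and *COL8A2*.

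*COL12A1* had the largest increase of the 25 genes, from a low level. It encodes a collagen that associates with type I fibrils (ENSGALG00000015908, chromosome 3 from 80804845 to 80905035), and it had 94, 83 and 102 counts at 1 h, against 24, 61 and 32 counts at time 0. In CPM these were 6.14, 5.30 and 5.96 at 1 h, against 1.77, 3.94 and 2.10 at time 0, with no overlap. *COL12A1* rose 2.21-fold, with a log2 fold change of 1.14 (SE 0.28, adjusted p = 0.00793), and it passed the threshold in all 16 alternatives, with adjusted p-values from 0.000984 to 0.0380. Its log2 fold change ranged from 0.91 with the gene length correction to 1.57 without time 0 replicate 2, the time 0 library in which it was highest. It was the only one of the genes called with a log2 fold change of at least 1.

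*COL8A2*, the single gene called lower, encodes a short-chain network collagen that is a component of the corneal Descemet membrane (ENSGALG00000002298, chromosome 23 from 4279194 to 4285138). It had 28.5, 37.9 and 31.0 CPM at 1 h, against 40.7, 40.7 and 38.7 CPM at time 0. The 1 h libraries were all below the time 0 libraries, 1 h replicate 2 by little. *COL8A2* fell by 0.30 on the log2 scale (SE 0.11, adjusted p = 0.0470). The call was lost with DESeq2 (adjusted p = 0.0523), with non-robust dispersions (0.0515), with the gene length correction (0.0541), without 1 h replicate 1 or 3 (0.105 and 0.104) and without time 0 replicate 1, 2 or 3 (0.113, 0.108 and 0.0768), and the alternatives spanned adjusted p-values of 0.00632 to 0.113.

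Type IX and type I chains were lower at 1 h on average, but their levels at time 0 rested largely on replicate 2. *COL9A1*, a chain of the collagen that coats type II fibrils (ENSGALG00000015970, chromosome 3 from 82821169 to 82887349), had 21, 3 and 6 counts at 1 h, against 89, 357 and 29 counts at time 0. *COL9A3*, another chain of that trimer (ENSGALG00000005628, chromosome 20 from 8340728 to 8372146), had 23, 13 and 24 counts at 1 h, against 44, 260 and 25 counts at time 0. In CPM neither chain overlapped between the time points, with time 0 values from 1.90 to 23.1 for *COL9A1* and from 1.64 to 16.8 for *COL9A3*, 12.1-fold and 10.3-fold apart. The log2 fold changes of -4.06 for *COL9A1* (SE 1.29, adjusted p = 0.0735) and -2.54 for *COL9A3* (SE 1.04, adjusted p = 0.130) did not pass the threshold in edgeR's test. DESeq2 called both, with adjusted p-values of 0.00429 and 0.0369, as did edgeR with non-robust dispersions (0.00608 and 0.0250). Without time 0 replicate 2 *COL9A1* was called at -2.73 (adjusted p = 0.0392) while *COL9A3* was not called at -0.96 (adjusted p = 0.115), and without time 0 replicate 3 *COL9A1* was called at -4.56 (adjusted p = 0.0209) and *COL9A3* at -3.01 (adjusted p = 0.0391). Across alternatives the adjusted p-values spanned 0.00429 to 0.223 for *COL9A1* and 0.0250 to 0.302 for *COL9A3*.

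*COL1A1* and *COL1A2* encode the chains of type I collagen, the main fibrillar collagen of connective tissue. *COL1A1* (ENSGALG00000041555, chromosome 27 from 5538288 to 5555467) had 27, 7 and 9 counts at 1 h, against 15, 119 and 10 counts at time 0. *COL1A2* (ENSGALG00000009641, chromosome 2 from 23572966 to 23610978) had 33, 14 and 36 counts at 1 h, against 55, 117 and 4 counts at time 0. The time points overlapped in both, and neither passed the test (adjusted p = 0.276 and 0.404). *COL1A1* had a log2 fold change of -1.81 with all libraries and 0.04 without time 0 replicate 2. *COL1A2* was called lower without time 0 replicate 3 (-1.76, adjusted p = 0.00888). *FBN3*, a fibrillin gene from the list of other matrix genes, shared the pattern, with 0.98, 0.32 and 0.88 CPM at 1 h and 3.10, 10.4 and 0.92 CPM at time 0. The sum of the 4 type I and type IX chains was 6.79, 2.36 and 4.38 CPM at 1 h, against 15.0, 55.2 and 4.46 CPM at time 0. Of 10 mesenchymal markers, only 2 were highest in time 0 replicate 2, and each other library was highest in 1 or 2. Those 2 were *DCN* and *KERA*, which encode the stromal proteoglycans decorin and keratocan, at 35.5 and 62.3 CPM. Of 14 lens fiber markers, 11 were highest in time 0 replicate 2. The summed mesenchymal list, 355 to 424 CPM at 1 h and 368 to 431 CPM at time 0, was mostly *PDGFRA*. The part of other tissue in these chains was not tested.

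**Figure D4:**
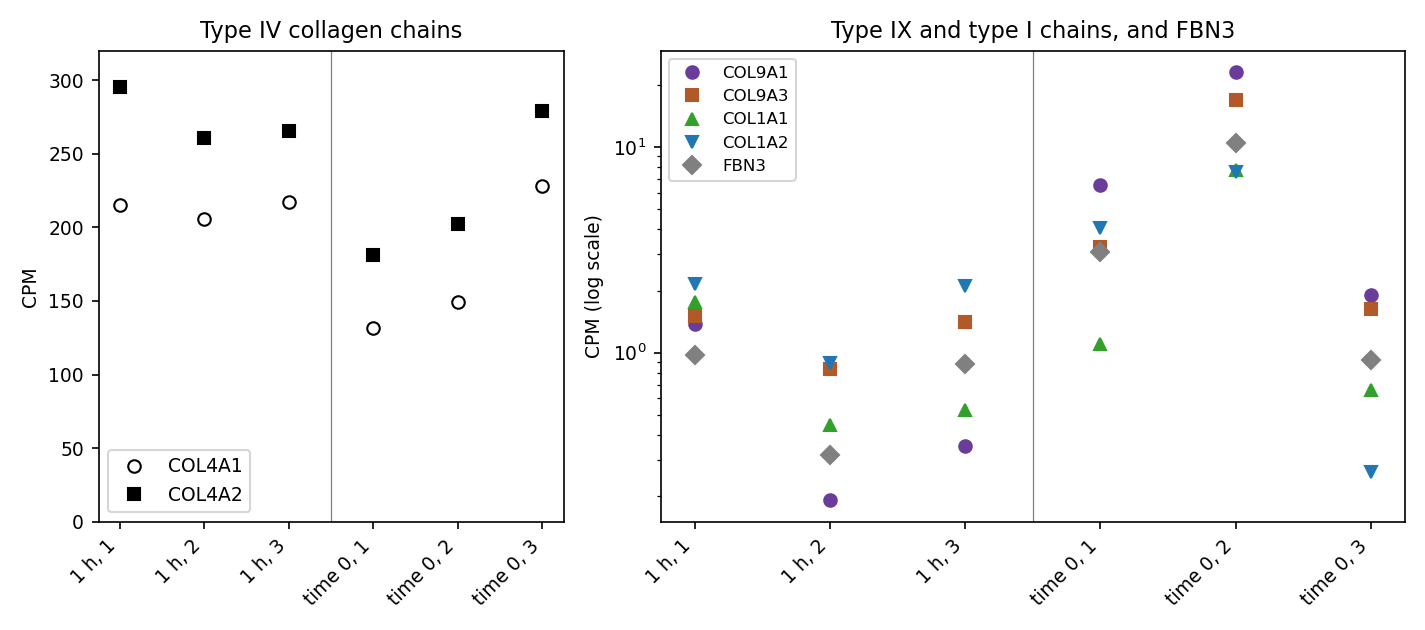
CPM of the type IV chains (left, linear axis from 0) and of *COL9A1*, *COL9A3*, *COL1A1*, *COL1A2* and *FBN3* (right, log axis) in each library, with the 1 h libraries left of the line. Time 0 replicate 3 has the highest type IV values of time 0 (228 and 279 CPM), and time 0 replicate 2 the highest value of each gene on the right.

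The remaining collagens were low. *COL3A1*, a fibrillar collagen of soft connective tissue, had 6.92, 4.21 and 5.67 CPM at 1 h, against 4.06, 4.14 and 2.95 CPM at time 0. The time points did not overlap, though only narrowly, and the log2 fold change of 0.59 (SE 0.23) had an adjusted p of 0.0740, or 0.0361 without 1 h replicate 2. *COL5A2*, which lies tail to tail with *COL3A1* on chromosome 7 with 1749 bases shared, so that reads there are uncertain without strand, had 9.99 to 11.7 CPM at 1 h and 11.4 to 13.5 CPM at time 0. Its log2 fold change was -0.17 (adjusted p = 0.361). *COL5A1* had 10, 1 and 84 counts at 1 h, against 18, 27 and 6 counts at time 0. Its high value was in 1 h replicate 3, the library that also held 62 counts of *AGRN* and 82 of *NEUROD1*, a retinal neuron factor with at most 1 count elsewhere. Whether retinal RNA contributed to *COL5A1* and *AGRN* was not tested. *COL5A1* had a log2 fold change of 0.72 with all libraries and -1.69 without 1 h replicate 3, neither past the threshold. *COL6A1*, a chain of the beaded microfibrils of connective tissue, had 12 to 30 counts at 1 h and 13 to 19 counts at time 0 (log2 fold change 0.10, adjusted p = 0.885).

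Besides *AGRN*, the 9 genes under the count minimum were *COL6A2*, *COL6A3*, *COL13A1*, *COL14A1*, *COL17A1*, *COL20A1*, *COL22A1*, *COL25A1* and *COL28A1*. The highest single count among them was 34, for *COL17A1* in time 0 replicate 2. *COL6A2* and *COL6A3*, which encode partner chains of *COL6A1* in type VI collagen, had at most 5 and 7 counts in any library. *LAMB4*, *COL1A1*, *COL5A1* and *COL9A1* were nearest to the count minimum among the genes described, with 10 or more counts in 3, 4, 4 and 4 libraries, and *AGRN*, *COL17A1* and *COL22A1* nearest below it, with 2 libraries each.

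The enzymes and chaperones that build collagen were compared as a list of 39 symbols, of which 30 were tested. Of these, 2 rose and 4 fell at 1 h, against 19.8% and 12.0% of all genes, and the median log2 fold change was -0.16, against -0.01 over all genes. At an unadjusted p under 0.05 in edgeR's test, 2 were higher and 13 lower, against 24.2% and 18.6% of all genes. *P3H2*, a prolyl 3-hydroxylase that acts on type IV collagen, had 137, 102 and 108 CPM at 1 h, against 66.9, 71.7 and 74.2 CPM at time 0. *MIA3*, whose product loads procollagen into transport carriers, had 91.5, 85.7 and 90.1 CPM at 1 h, against 62.3, 66.2 and 70.8 CPM at time 0. Neither overlapped between time points, and both passed in all 16 alternatives, with log2 fold changes of 0.70 for *P3H2* (SE 0.11, adjusted p = 0.000387) and 0.42 for *MIA3* (SE 0.07, adjusted p = 0.00106). The 4 that fell were *COLGALT2*, a collagen galactosyltransferase (-0.34, adjusted p = 0.0115), *CRTAP*, a partner of prolyl 3-hydroxylation (-0.27, adjusted p = 0.0161), *PEPD*, a dipeptidase that recycles proline (-0.32, adjusted p = 0.0238), and *ADAMTS3*, a procollagen N-proteinase (-0.48, adjusted p = 0.0392). Without time 0 replicate 1 none of the 30 was called lower, with adjusted p-values of 0.0506, 0.0655, 0.0633 and 0.0570 for these 4, and without time 0 replicate 2 the genes called lower were 2. *PEPD* was also not called without 1 h replicate 2 or time 0 replicate 2 (0.0772 and 0.0844), nor *ADAMTS3* without 1 h replicate 1 or 2 or time 0 replicate 2 or 3 (0.105, 0.109, 0.0515 and 0.146). With upper-quartile scaling, which moved the median over all genes to -0.14 (log2), 21 were called lower. The collagen chaperone *SERPINH1* had 1026 to 1258 CPM at 1 h and 1127 to 1364 CPM at time 0 (log2 fold change -0.15, adjusted p = 0.264).

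Of 51 symbols of other matrix genes and matrix receptors, 35 were tested, and 3 rose and 3 fell, smaller shares than the 19.8% and 12.0% of all genes. *THBS1*, which encodes the matricellular protein thrombospondin 1, had 5440, 5079 and 5983 CPM at 1 h, against 1391, 1429 and 1517 CPM at time 0. This 3.80-fold increase (log2 fold change 1.93, SE 0.08, adjusted p = 6.69e-09) was the largest in either list. *DDR2*, a receptor for fibrillar collagens, had 114, 114 and 89.3 CPM at 1 h, against 77.7, 70.2 and 72.5 CPM at time 0 (log2 fold change 0.53, adjusted p = 0.00160). *TNC*, which encodes tenascin C, a matrix protein of wounds and developing tissue, had 185, 245 and 195 CPM at 1 h, against 153, 169 and 134 CPM at time 0 (log2 fold change 0.46, adjusted p = 0.0132). The increases of *THBS1* and *DDR2* passed in every alternative, and that of *TNC* did not without time 0 replicate 1 or 3 (adjusted p = 0.0536 and 0.0519) or with the gene length correction (0.119).

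The 3 that fell were *TINAGL1*, a matricellular protein of basement membranes with 1437, 1519 and 1439 CPM at 1 h and 1963, 1708 and 1803 CPM at time 0 (-0.32, adjusted p = 0.00751), *EFEMP1*, a fibulin (-0.53, adjusted p = 0.0478), and *TGFBI*, an adhesive matrix protein of the cornea (-0.20, adjusted p = 0.0483). *EFEMP1* and *TGFBI* each lost the call when 1 h replicate 1, 2 or 3 or time 0 replicate 1 was left out (adjusted p from 0.0582 to 0.110 for *EFEMP1* and from 0.0644 to 0.121 for *TGFBI*), and *TGFBI* also when time 0 replicate 3 was (0.124). Without time 0 replicate 2, 6 of the list were called higher. *SPARC*, a collagen-binding protein abundant in the capsule, had 3498 to 3560 CPM at 1 h and 3309 to 3940 CPM at time 0, with a log2 fold change of -0.07 (adjusted p = 0.548).

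**Figure D5:**
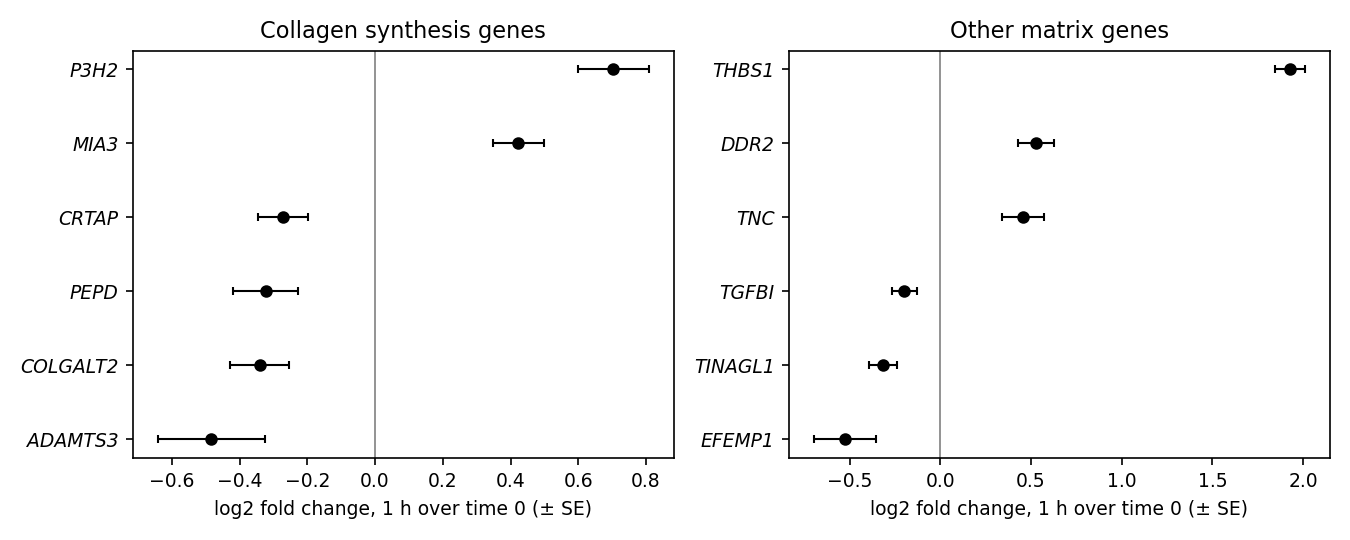
Log2 fold change of 1 h over time 0 (horizontal axis, ± standard error) of the genes with an adjusted p under 0.05 among 30 collagen synthesis genes (left) and 35 other matrix genes (right). *P3H2* and *MIA3* are the 2 to the right of 0 on the left side, and *THBS1* at 1.93 is the largest change on the right side.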

How the data were processed

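Reads of 6 libraries (3 at 1 h, 3 at time 0) were counted per gene by the authors, who deposited 1 table. The raw counts in it, which carry no normalization, were used here. The submitters' processing notes name HISAT2 2.0.5, StringTie 1.3.3b, featureCounts 1.5.0-p3 and DESeq2 1.20.0. The genome build is not given in the sources used here, and coordinates and gene lengths are those of the deposited table. The deposited size-factor scaled and FPKM values (12 columns) and the authors' comparison columns (means, fold changes and p-values) were not used.

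Counts were analysed with R 4.3.3 and edgeR 4.0.16. Genes were filtered with filterByExpr (12391 kept), scaled with TMM (factors 0.969 to 1.03) and compared with robust glmQLFit fits and glmQLFTest at a Benjamini-Hochberg adjusted p of 0.05 over all genes. The filter removes genes with few reads, and the scaling decides which small changes count as higher or lower. Standard errors were derived from the F statistic. Alternatives used DESeq2 1.42.0, limma 3.58.1 (voom), other scalings, no filter, non-robust dispersions, a replicate block, a centred gene length correction (a loess trend per library) and each library left out. The fit was tested on simulated data. Replicate pairs differed beyond sampling noise (chi-square per degree of freedom 8.02 to 15.1). All libraries were kept in the main fit, also those in which markers of other tissues stood out. Whether the pools came from separate embryos is only implied by the labels' biological replicate numbers. The p-values weigh each difference between time points against the spread between these libraries.

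Genes and lists were chosen with earlier results of these data known. Named were all genes called, the 10 most abundant per kilobase, all type IV chains, LAMA1, LAMA5, LAMB1, LAMB2, LAMC1, NID1, NID2, HSPG2, AGRN and COL18A1 where present, and from each of the 2 lists up to 5 largest increases and decreases among genes called. Others were named to account for families or libraries.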

Additional observations from a re-analysis of the deposited data

How the results depend on the processing

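The small counts of calls moved with the processing. The calls of *LAMA5* and *COL12A1* held in all 16 alternatives, and those of *LAMA1*, *LAMA3* and *COL8A2* in 8 of 16 each. For the 25 genes (4 higher and 1 lower), upper-quartile scaling gave 2 and 3, library totals 2 and 2, the centred gene length correction 2 and 2, DESeq2 and non-robust dispersions 4 and 3 each, and size factors by relative log expression and no filter 4 and 2 each. Among basement membrane chains (3 and 0) these gave 1 and 2, 1 and 1, 1 and 2, 3 and 1, 3 and 1, 3 and 1, and 3 and 1, in that order. Among other collagens (1 and 1), 0 were lower with the length correction and 2 with DESeq2 or non-robust dispersions. Collagen synthesis genes called lower (4) were 21 with upper-quartile scaling, 8 with library totals, 7 with the length correction and 7 with DESeq2. Other matrix genes called lower (3) were 7 with upper-quartile scaling. A log2 fold change of at least 1 left 1 of the 25 genes higher and 0 lower, 0 basement membrane chains, 0 other collagens lower, 0 collagen synthesis genes in either direction, 1 other matrix gene higher and 0 lower, and 800 higher and 96 lower of all genes. Of all genes (2450 higher, 1488 lower, 62.2% higher), upper-quartile scaling called 1901 and 3400 (35.9% higher) and library totals 2201 and 2016 (52.2% higher).

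With libraries left out in turn, the 25 genes gave 2 to 4 higher and 0 to 3 lower, basement membrane chains 1 to 3 and 0 to 1, other collagens 1 to 2 and 0 to 3, collagen synthesis genes 2 to 2 and 0 to 6, other matrix genes 2 to 6 and 1 to 4, and all genes 1965 to 2300 and 1035 to 1432. Some fitted log2 fold changes turned sign. *HSPG2* was -0.12 with upper-quartile scaling, -0.032 with library totals, -0.0053 without a filter, -0.0019 with DESeq2 and -0.28 with the length correction. *LAMB2* was -0.12 with upper-quartile scaling, -0.027 with library totals, -0.00073 without a filter and -0.17 with the length correction. *COL2A1* was -0.014 and *COL6A1* -0.033 with upper-quartile scaling, and *COL5A1* was -0.49 with limma-voom. With libraries left out, *NID1* lay between -0.079 and 0.023, *HSPG2* between -0.10 and 0.18, *LAMB2* between -0.086 and 0.063, *LAMB3* between -0.13 and 0.14, *COL1A1* between -2.70 and 0.045, *COL6A1* between -0.45 and 0.30, and *COL5A1* between -1.69 and 1.27. The median over all genes was -0.14 with upper-quartile scaling and -0.051 with library totals, against -0.0058 in the main fit. The cause of the changes of sign was not tested.

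With the replicate number as a block, the 25 genes gave 4 higher and 2 lower, and 1 basement membrane chain was lower. With the block and the gene length correction together they gave 2 and 4, basement membrane chains 1 and 3, and 8 collagen synthesis genes were lower, while *HSPG2* was -0.27, *LAMB2* -0.17 and *COL5A1* -0.15. The correlations of same-numbered libraries' deviations were -0.0764, 0.0047 and -0.0407, against -0.0409 to 0.0748 for libraries with different numbers. Same-numbered libraries were thus no more alike, but so few values cannot settle whether samples were collected in pairs. The standard errors of *COL6A1* and *LAMB4*, with at most 30 and 22 counts in a library, were 0.44 and 0.52. Changes larger than these could still be missed at this depth. For *LAMB4*, a log2 fold change of -0.83 was not called (edgeR adjusted p = 0.248).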

Other observations

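Besides the rows with a symbol, 4 rows without one are described in the authors' table as collagen chains. The row described as collagen type XXIV alpha 1 chain, a fibrillar collagen (ENSGALG00000006864, chromosome 8 from 16434266 to 16549728), had 551, 595 and 545 CPM at 1 h, against 435, 391 and 438 CPM at time 0. Per kilobase it averaged 105 ± 5.08 at 1 h and 78.5 ± 4.95 at time 0 (SD, n = 3 libraries each), above every collagen that carried a symbol. It rose by 0.42 on the log2 scale (SE 0.07, edgeR adjusted p = 0.00116), and was called in all 16 alternatives. The row described as collagen type XXVII alpha 1 chain, another fibrillar collagen (ENSGALG00000006958, chromosome 17 from 5031761 to 5159465), had 37.5, 35.4 and 38.0 CPM at 1 h, against 18.0, 25.9 and 29.3 CPM at time 0. It rose as well, by 0.60 on the log2 scale (SE 0.15, adjusted p = 0.0104), and was called in all 16 alternatives. Neither row overlapped between the time points. The rows described as type X and type XV chains had at most 2 and 3 counts in any library.

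A row with the symbol *C1QC* is described in the table as the collagen type XI alpha 2 chain. It had at most 4 counts in a library, and it was not tested.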
